A study of Mus musculus with 67 samples.

Results

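The epiblast is the inner tissue of the implanting mouse embryo from which the body forms. RNA of epiblast (Epi) taken in vivo was compared between E5.25 (the embryonic day, 3 libraries) and E5.0 (3 libraries). These 6 of the 67 libraries of the series were chosen by their labels, with no measured value. All were wild type, and the study used a mouse line in which the Pdgfra promoter, active in primitive endoderm, drives EGFP so that the lineages can be separated. Embryos were freed from the decidua, the maternal tissue around the implant, and digested with trypsin, and each library was amplified by Smart-seq2 for 17 cycles from about 10 to 100 cells. The labels state 3 biological replicates per group but not how many embryos went into a library, so p-values measure spread between libraries. That spread was pooled per gene over the groups of all 67 libraries. The p-values and standard errors therefore do not rest on the 6 in vivo libraries alone. Other libraries were read beside them: Epi of E5.25 and of E5.0 without the in vivo suffix (3 libraries each), whose culture status the labels do not state, Epi and extra-embryonic ectoderm (ExE) of E5.5 in vivo (2 libraries each), and ExE and Epi of E4.75 (3 libraries each), all wild type. Below, "E5.25 libraries" and "E5.0 libraries" are the 6 in vivo ones unless "unsuffixed" is written.

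Levels are TPM, the share of a transcript in its library after division by its length, taken after the ribosomal RNA precursor Rn45s was removed and each library rescaled. Of 25005 genes, 15699 reached 1 TPM in at least 3 of the 67 libraries and were tested. A difference is E5.25 minus E5.0 on the log2(TPM + 1) scale, given ± its standard error. A gene is said to have risen or fallen at a limma adjusted p under 0.05 together with an absolute log2 difference of at least 1.

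Around implantation the epiblast leaves the naive state of pluripotency, in which factors such as Zfp42 and Esrrb are expressed, and enters a formative state marked by Otx2, Fgf5 and Pou3f1. Fibroblast growth factor (FGF) signals acting through the kinase ERK are known to promote that exit, and Nodal with its co-receptor Tdgf1 keeps the cells pluripotent. The cells polarise around a lumen, and the ExE, a trophoblast tissue that expresses Elf5 and Bmp4, comes to lie against them. Many developmental genes carry both H3K4me3 and H3K27me3 at this time, the bivalent chromatin that is the subject of the study.

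The label was checked first against the epiblast markers. Pou5f1 (chromosome 17, 35506018 to 35510772 on GRCm38), the POU factor required for pluripotency, was 262, 178 and 237 TPM in the E5.25 libraries, against 78.2, 58.0 and 87.3 TPM in the E5.0 libraries. Otx2 (chromosome 14, 48657677 to 48673819), a homeodomain factor of the formative epiblast, was 169, 116 and 99.7 TPM in the E5.25 libraries, against 42.9, 59.8 and 49.5 TPM in the E5.0 libraries. Both markers were present in every library, and each was higher in all 3 E5.25 libraries than in any E5.0 library. Pou5f1 differed by 1.59 ± 0.43, limma adjusted p = 0.0028, and Otx2 by 1.30 ± 0.41, limma adjusted p = 0.013 (log2). Sox2 (chromosome 3, 34650405 to 34652461), the partner of Pou5f1, was low throughout, at 0.901, 1.61 and 0.630 TPM in the E5.25 libraries, against 4.46, 1.47 and 2.56 TPM in the E5.0 libraries. The groups overlapped and the difference was not called (log2 difference -0.86 ± 0.40, limma adjusted p = 0.11). Pou5f1 lost its call with a pseudocount of 0.1 TPM (log2 difference 1.60). Otx2 lost its call with a pseudocount of 0.1 TPM (log2 difference 1.31), with quantile normalization (0.84), with median-ratio scaling (0.80), with array weights (1.26), without E5.0 replicate 1 (1.19) or without E5.25 replicate 1 (1.08). Sox2 was called with quantile normalization (log2 difference -1.29) and with median-ratio scaling (-1.21).

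The libraries of the 2 ages also differed in make-up. Rn45s took 0.628% to 1.04% of the deposited TPM in the E5.25 libraries, against 8.32% to 11.2% in the E5.0 libraries. Its share was 0.375% to 1.204% in unsuffixed E5.0 and 0.334% to 0.401% in unsuffixed E5.25. In Epi of E4.75 it was 0.808% to 1.128%, and in Epi of E5.5 in vivo 0.174% and 0.144%. The in vivo E5.0 libraries thus stood far above every other Epi group read here, including the unsuffixed one of the same age. They are the baseline of every in vivo difference below. The 85 cytoplasmic ribosomal protein genes took 12.4% to 16.6% of the remaining TPM in the E5.25 libraries and 24.1% to 25.3% in the E5.0 libraries. Their share was 16.8% to 18.7% in unsuffixed E5.0, 14.9% to 15.6% in unsuffixed E5.25 and 16.4% to 17.0% in Epi of E4.75. In Epi of E5.5 in vivo it was 11.9% and 11.1%, so the in vivo E5.0 libraries were again the highest. Between 9614 and 10106 genes reached 1 TPM in an E5.25 library, and between 8999 and 9412 in an E5.0 library. The 10 ExE markers summed to 3.76 to 34.9 TPM in the E5.25 libraries and 134 to 169 TPM in the E5.0 libraries, beside 1694 and 1858 TPM in the ExE libraries of E5.5. They summed to 397 to 550 TPM in unsuffixed E5.0, 235 to 259 TPM in unsuffixed E5.25 and 478 to 500 TPM in Epi of E4.75, all above the in vivo E5.0 libraries. In Epi of E5.5 in vivo the sums were 28.2 and 27.7 TPM. The 12 trophectoderm and giant cell markers summed to 331 to 523 TPM at E5.25 and 885 to 1026 TPM at E5.0, and the 21 endoderm markers to 11.5 to 37.5 TPM at E5.25 and 5.40 to 18.9 TPM at E5.0. In bulk libraries, fewer cells of a type and less RNA per cell cannot be told apart. Pearson correlations of log2(TPM + 1) across genes were 0.922 to 0.928 among the E5.25 libraries, 0.946 to 0.950 among the E5.0 libraries and 0.871 to 0.901 between the groups.

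**Figure D1:**
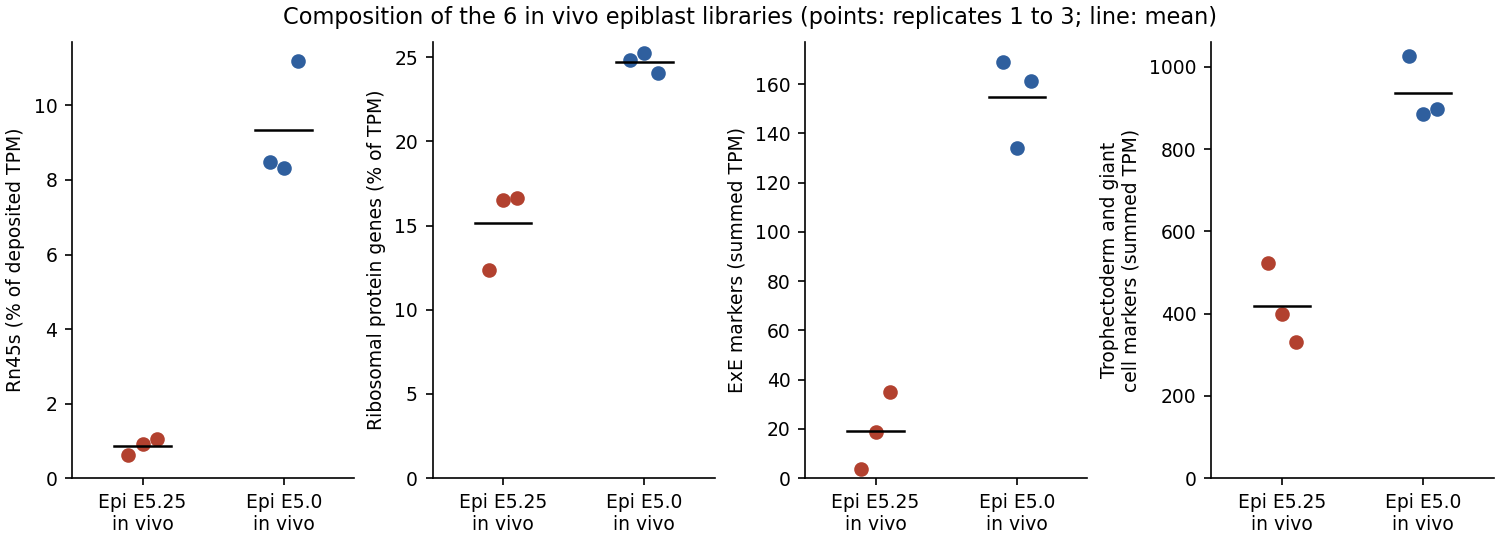
Share of Rn45s in the deposited TPM, share of ribosomal protein genes, and summed TPM of the ExE and of the trophectoderm and giant cell markers, in each E5.25 (left) and E5.0 (right) in vivo library; points are replicates and lines are means. On every axis the 3 E5.25 libraries lie below the 3 E5.0 libraries, with ribosomal protein genes at 12.4% to 16.6% and 24.1% to 25.3%.

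Across all genes tested, 2836 rose (18.1%) and 707 fell (4.5%) at E5.25. Of these, 2205 and 542 had all 3 E5.25 libraries on one side of all 3 E5.0 libraries, as did 20.3% and 7.89% of all genes tested. The median over all 15699 genes was 0.15 (log2), and over the 9877 genes of at least 1 TPM in 3 of the 6 libraries it was 0.44. The direction of the calls depended on the scaling: rises were 80.05% of the calls as reported, 55.77% with median-ratio scaling (1908 rose and 1513 fell) and 53.55% with quantile normalization (1695 rose and 1470 fell). Median-ratio scaling brought the median of the 9877 genes to 0.01, so a log2 difference below about 0.44 in size is within that shift. A fit of only the libraries compared called 855 rises and 261 falls, and the named genes that it did not call are given at the end. For each gene group below, the counts under median-ratio scaling are given beside the main ones. Main counts stand against 18.1% and 4.5% of all genes tested, and median-ratio counts against 1908 and 1513 of 15699. A list count near those shares says nothing particular about its members. Where leaving out 1 library, or the fit of only the libraries compared, moved such a count strongly, that count is given too.

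**Figure D2:**
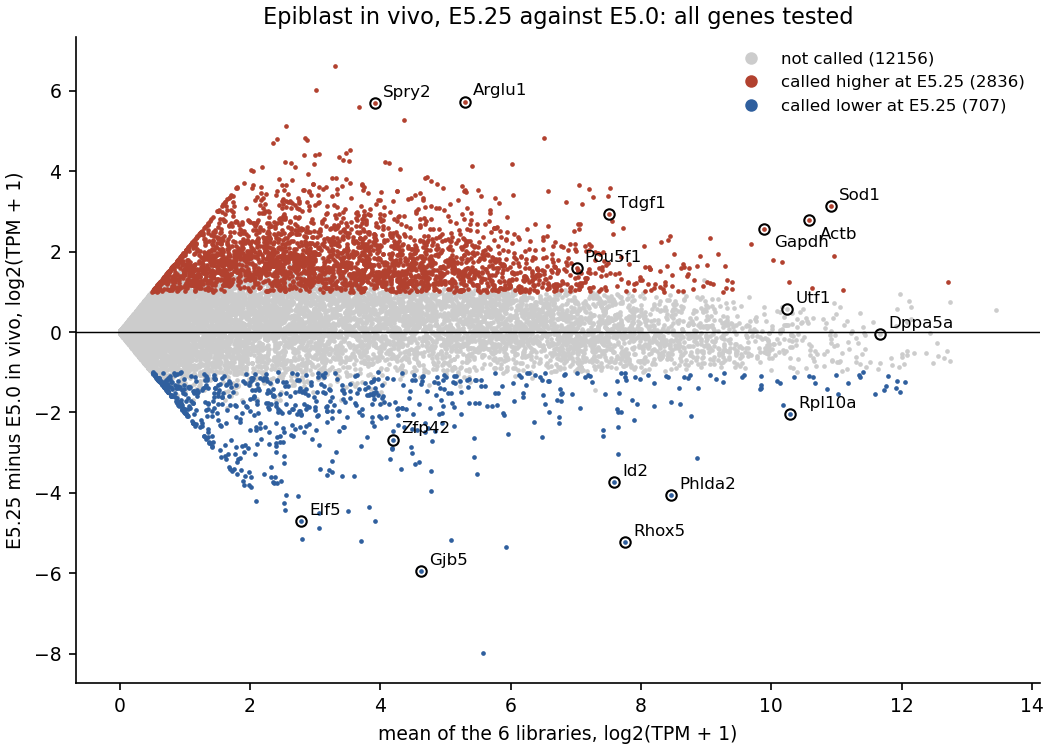
Difference between E5.25 and E5.0 in vivo (vertical axis, log2) against the mean of the 6 libraries (horizontal axis, log2(TPM + 1)) for the 15699 genes tested; red genes were called higher at E5.25 (2836), blue genes lower (707), and circles mark genes named in the text. The straight lower-left edges are genes at or near 0 TPM in one group; Sod1, Actb and Gapdh are among the most abundant genes that were higher at E5.25.

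Transcript length moved with the difference. Genes of at least 1 TPM in 3 of the 6 libraries were split into 5 equal classes by length. The class of the shortest transcripts (55 to 1747 bases) had a median log2 difference of -0.08. The other 4 classes, from short to long, had medians of 0.50, 0.74, 0.65 and 0.45, and in the unsuffixed libraries the 5 medians were 0.02, -0.02, 0.08, 0.16 and 0.29. Without the ribosomal protein genes the shortest class had a median of -0.06. The part of transcript length in the results below was not tested.

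Some genes of the pluripotency network rose and some of the naive state fell. Of 14 core pluripotency genes 5 rose and 0 fell (18.1% and 4.5% of all genes tested), with a median log2 difference of 0.64 beside 0.15 for all genes; with median-ratio scaling 3 rose and 2 fell. Lin28a, an RNA-binding protein that blocks let-7 microRNAs, was 56.1, 43.9 and 43.5 TPM in the E5.25 libraries, against 11.0, 6.82 and 14.1 TPM in the E5.0 libraries (log2 difference 2.11 ± 0.36, limma adjusted p = 4.3e-06). Nanog, a homeodomain factor whose reads can be shared with processed pseudogenes, was 4.41, 15.9 and 12.3 TPM in the E5.25 libraries, against 0.353, 2.07 and 4.63 TPM in the E5.0 libraries. The Nanog groups overlapped, as E5.25 replicate 1 lay below E5.0 replicate 3, and the log2 difference was 1.90 ± 0.44, limma adjusted p = 5.5e-04. Trim28, the co-repressor of zinc finger proteins that silence retroelements, was 496, 269 and 266 TPM in the E5.25 libraries, against 140.4, 131 and 121 TPM in the E5.0 libraries (log2 difference 1.32 ± 0.20, limma adjusted p = 7.2e-07). Trim28 lost its call with median-ratio scaling (log2 difference 0.82). For the core list 2 rose and 0 fell in the fit of only the libraries compared.

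Utf1, a chromatin protein of pluripotent cells, was the most abundant of the core genes, with 1474 ± 83.3 TPM in the E5.25 libraries and 997 ± 55.6 TPM in the E5.0 libraries (SD, n = 3 each). All 3 E5.25 libraries were above all E5.0 libraries, but its log2 difference of 0.56 ± 0.17, limma adjusted p = 0.0072 did not reach the minimum size. Dppa4, a DNA-binding protein of early embryos, averaged 262 ± 49.6 TPM in the E5.25 libraries and 297 ± 11.8 TPM in the E5.0 libraries and was not called (log2 difference -0.20 ± 0.31, limma adjusted p = 0.76).

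Of 16 naive genes 0 rose and 4 fell, the same counts as with median-ratio scaling. Zfp42 (chromosome 8, 43295063 to 43306980), the zinc finger factor Rex1, was 2.91, 6.91 and 11.3 TPM in the E5.25 libraries, against 39.8, 51.8 and 45.0 TPM in the E5.0 libraries (log2 difference -2.68 ± 0.24, limma adjusted p = 3.6e-13). Esrrb, an orphan nuclear receptor of the naive state, was 0, 0.290 and 0.0445 TPM in the E5.25 libraries, against 4.54, 3.42 and 4.96 TPM in the E5.0 libraries (log2 difference -2.25 ± 0.28, limma adjusted p = 5.4e-09). The groups did not overlap for either gene, and Esrrb was near 0 at E5.25. Zfp57, which protects imprinted loci from demethylation, averaged 2.77 ± 1.51 TPM in the E5.25 libraries and 9.77 ± 2.42 TPM in the E5.0 libraries (log2 difference -1.59 ± 0.24, limma adjusted p = 3.9e-07). Dppa5a, an RNA-binding protein of pluripotent cells, stayed among the most abundant genes, with 3230.1 ± 366 TPM in the E5.25 libraries and 3316 ± 99.0 TPM in the E5.0 libraries and a log2 difference of -0.04 ± 0.09, limma adjusted p = 0.84. The median of the naive list was -0.10. For the naive list 0 rose and 2 fell in the fit of only the libraries compared, 2 rose and 3 fell without E5.0 replicate 3 or without E5.25 replicate 3, 1 rose and 4 fell without E5.25 replicate 1, and 2 rose and 4 fell without E5.25 replicate 2.

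Formative and primed genes that changed all rose. Of 20 such genes 11 rose and 0 fell, with a median of 1.19; 7 rose and 0 fell with median-ratio scaling. Fgf5 (chromosome 5, 98254184 to 98277030), the FGF ligand that marks this state, was 63.6, 39.5 and 36.2 TPM in the E5.25 libraries, against 14.6, 10.8 and 16.7 TPM in the E5.0 libraries (log2 difference 1.63 ± 0.49, limma adjusted p = 0.0078). Dnmt3b (chromosome 2, 153649450 to 153687730), a de novo DNA methyltransferase, was 667, 431 and 355 TPM in the E5.25 libraries, against 137, 135 and 190.1 TPM in the E5.0 libraries (log2 difference 1.61 ± 0.21, limma adjusted p = 2.4e-08). The POU factor Pou3f1 was 34.3, 17.3 and 15.5 TPM in the E5.25 libraries, against 5.36, 9.14 and 6.90 TPM in the E5.0 libraries (log2 difference 1.46 ± 0.34, limma adjusted p = 5.5e-04). For all 3 genes the groups did not overlap, and E5.25 replicate 1 was the highest library. Fgf5 lost its call with a pseudocount of 0.1 TPM (log2 difference 1.69), with quantile normalization (0.89), with median-ratio scaling (1.15) or without E5.25 replicate 1 (1.39). Pou3f1 lost its call with quantile normalization (log2 difference 0.73). For the formative list 5 rose and 0 fell in the fit of only the libraries compared.

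Other transcription factors of the list differed more. The bHLH factor Tcf15 was 71.6, 148 and 94.3 TPM in the E5.25 libraries, against 28.4, 0.808 and 6.82 TPM in the E5.0 libraries (log2 difference 3.76 ± 0.63, limma adjusted p = 4.1e-06), with E5.0 replicate 1 well above the other E5.0 libraries. Sox4, an HMG box factor, was 36.4, 12.1 and 10.6 TPM in the E5.25 libraries, against 0.705, 1.60 and 2.53 TPM in the E5.0 libraries (log2 difference 2.84 ± 0.44, limma adjusted p = 8.7e-07), and Lef1, a transcription factor of the WNT pathway, was 29.8, 24.5 and 11.9 TPM in the E5.25 libraries, against 3.49, 1.88 and 6.90 TPM in the E5.0 libraries (log2 difference 2.21 ± 0.31, limma adjusted p = 7.7e-08). No library of either age overlapped the other for these 3 genes. Dnmt3a, the other de novo methyltransferase, averaged 78.9 ± 10.0 TPM in the E5.25 libraries and 57.7 ± 8.16 TPM in the E5.0 libraries and was not called (log2 difference 0.45 ± 0.18, limma adjusted p = 0.050).

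**Figure D3:**
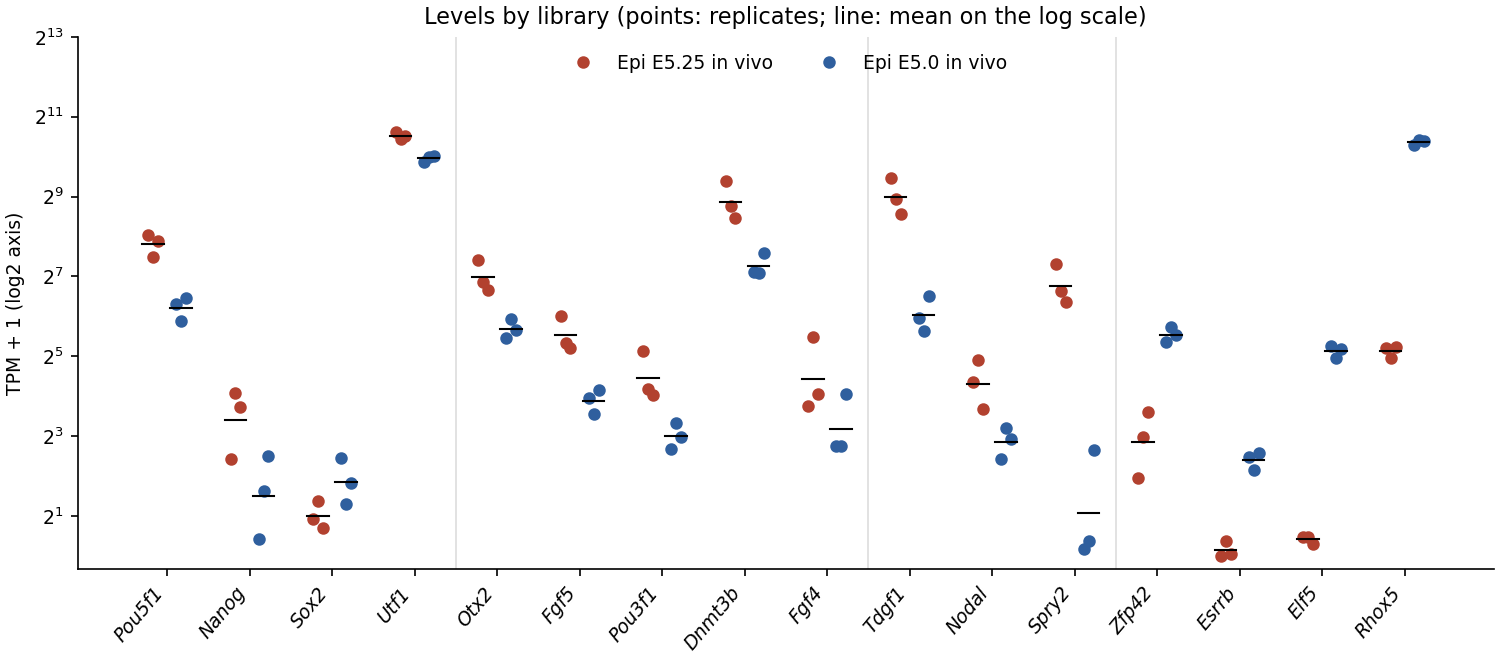
TPM + 1 on a log2 axis of 16 named genes in each in vivo library, E5.25 left of E5.0 for each gene; points are replicates and lines are means on the log scale. Pou5f1, Otx2, Fgf5, Dnmt3b, Tdgf1 and Spry2 lie higher at E5.25, Zfp42, Esrrb, Elf5 and Rhox5 lie lower, and the Sox2, Nanog and Fgf4 groups overlap.

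Ligands and feedback inhibitors of FGF signalling rose. Of 16 genes of the FGF and ERK list 9 rose and 0 fell, with a median of 1.44; 7 rose and 0 fell with median-ratio scaling. Fgf4, the ligand made by the epiblast itself, was 12.4, 43.7 and 15.7 TPM in the E5.25 libraries, against 5.72, 5.75 and 15.6 TPM in the E5.0 libraries. The Fgf4 groups overlapped because E5.25 replicate 1 was below E5.0 replicate 3, and the log2 difference was 1.24 ± 0.32, limma adjusted p = 0.0016. Fgf4 lost its call with quantile normalization (log2 difference 0.49), with median-ratio scaling (0.79) or without E5.25 replicate 2 (0.72). For the FGF and ERK list 8 rose and 1 fell without E5.0 replicate 2.

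Among the inhibitors, Spry2 (chromosome 14, 105891947 to 105896819), a Sprouty protein that damps receptor tyrosine kinase signals, was 159, 97.9 and 81.2 TPM in the E5.25 libraries, against 0.128, 0.302 and 5.29 TPM in the E5.0 libraries (log2 difference 5.70 ± 0.43, limma adjusted p = 1.2e-15). It was near 0 in E5.0 replicates 1 and 2, and E5.0 replicate 3 was still far below every E5.25 library. The ERK phosphatase Dusp6 was 149, 108 and 90.7 TPM in the E5.25 libraries, against 12.3, 17.4 and 21.7 TPM in the E5.0 libraries (log2 difference 2.69 ± 0.22, limma adjusted p = 7.0e-15). Spry1 was 40.5, 47.1 and 8.66 TPM in the E5.25 libraries, against 10.1, 0 and 9.55 TPM in the E5.0 libraries, with E5.25 replicate 3 below 2 of the E5.0 libraries (log2 difference 2.46 ± 0.56, limma adjusted p = 4.2e-04). Etv4, an ETS factor induced by ERK, was 4.22, 2.94 and 3.74 TPM in the E5.25 libraries, against 0, 0.110 and 0.982 TPM in the E5.0 libraries (log2 difference 1.82 ± 0.42, limma adjusted p = 5.0e-04). Spry1 lost its call without E5.0 replicate 2 (log2 difference 1.31).

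In the Nodal pathway the ligand and its co-receptor rose and most other components did not pass the test. Tdgf1 (chromosome 9, 110939603 to 110946158), the co-receptor Cripto, was 706, 487 and 377 TPM in the E5.25 libraries, against 61.3, 48.8 and 90.9 TPM in the E5.0 libraries (log2 difference 2.95 ± 0.21, limma adjusted p = 3.0e-16). Nodal (chromosome 10, 61417972 to 61425338) itself was 19.5, 29.0 and 11.8 TPM in the E5.25 libraries, against 4.41, 8.17 and 6.65 TPM in the E5.0 libraries (log2 difference 1.46 ± 0.44, limma adjusted p = 0.0082). Neither gene overlapped between the ages, and the lowest Tdgf1 value at E5.25 was above every E5.0 value. Skil, which represses SMAD-driven transcription, was 86.9, 55.8 and 36.2 TPM in the E5.25 libraries, against 13.5, 11.4 and 17.4 TPM in the E5.0 libraries (log2 difference 1.94 ± 0.34, limma adjusted p = 7.8e-06). Lefty2, a Nodal antagonist, was 4.19, 6.97 and 0 TPM in the E5.25 libraries, against 0, 0 and 0 TPM in the E5.0 libraries, so its call rests on 2 libraries, was lost without E5.25 replicate 2 (limma adjusted p = 0.06), and no fold is given. The antagonist Lefty1 was 8.91, 8.75 and 8.67 TPM in the E5.25 libraries, against 19.4, 22.6 and 16.5 TPM in the E5.0 libraries; it was lower in all 3 E5.25 libraries but not called (log2 difference -1.06 ± 0.45, limma adjusted p = 0.068). Of 15 genes 5 rose and 0 fell, but with median-ratio scaling 3 rose and 3 fell and the median changed sign, at 0.23 as reported and -0.18 under that scaling. Without E5.0 replicate 3 the median was -0.04. Nodal lost its call with a pseudocount of 0.1 TPM (log2 difference 1.58), with quantile normalization (0.73), with median-ratio scaling (1.01), without E5.0 replicate 1 (1.25) or without E5.25 replicate 2 (1.16). Lefty1 was called with the filter on the libraries compared (log2 difference -1.06), with quantile normalization (-1.66), with median-ratio scaling (-1.54) and with ribosomal protein genes dropped (-1.24). For the Nodal list 2 rose and 1 fell in the fit of only the libraries compared or without E5.25 replicate 2, 4 rose and 3 fell without E5.0 replicate 1, and 5 rose and 1 fell without E5.25 replicate 1.

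Of 22 genes of the WNT list 9 rose and 2 fell, against 7 and 3 with median-ratio scaling. Gsk3b, the kinase that marks beta-catenin for destruction, was 22.0, 17.6 and 11.4 TPM in the E5.25 libraries, against 0.792, 0.679 and 1.01 TPM in the E5.0 libraries (log2 difference 3.26 ± 0.28, limma adjusted p = 7.8e-14). Tcf7l1, a repressor of WNT targets, was 35.4, 32.9 and 30.4 TPM in the E5.25 libraries, against 9.09, 6.13 and 3.43 TPM in the E5.0 libraries (log2 difference 2.31 ± 0.39, limma adjusted p = 4.6e-06), and the secreted WNT inhibitor Sfrp2 was 54.1, 10.7 and 36.7 TPM in the E5.25 libraries, against 9.95, 2.18 and 4.34 TPM in the E5.0 libraries (log2 difference 2.34 ± 0.45, limma adjusted p = 3.5e-05). The risen members thus included inhibitors of the pathway, and E5.25 was above E5.0 in every pair of libraries for these 3 genes. Of the 2 genes that fell, the ligand Wnt7b, made by trophoblast, was 0.0833, 0 and 0 TPM in the E5.25 libraries, against 1.18, 2.08 and 6.17 TPM in the E5.0 libraries (log2 difference -1.82 ± 0.59, limma adjusted p = 0.014). Wnt7b lost its call with array weights (log2 difference -1.79) or without E5.0 replicate 3 (-1.33). Wnt7b is also 1 of the 10 ExE markers, whose summed level was lower at E5.25 as given above, and the part of ExE RNA in its fall was not tested. For the WNT list 4 rose and 0 fell in the fit of only the libraries compared, 9 rose and 1 fell without E5.0 replicate 1, 9 rose and 0 fell without E5.0 replicate 3, 5 rose and 1 fell without E5.25 replicate 1, and 10 rose and 1 fell without E5.25 replicate 2.

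BMP genes moved in both directions. Id2, an inhibitor of bHLH factors and a BMP target, was 53.5, 42.4 and 60.7 TPM in the E5.25 libraries, against 611, 744 and 747 TPM in the E5.0 libraries (log2 difference -3.73 ± 0.21, limma adjusted p = 6.9e-20). Id1 and Id3, the related inhibitors, differed from it: Id1 averaged 128 ± 29.5 TPM in the E5.25 libraries and 133 ± 14.3 TPM in the E5.0 libraries and Id3 929.8 ± 123 TPM in the E5.25 libraries and 593 ± 38.9 TPM in the E5.0 libraries, and neither was called (log2 differences -0.08 ± 0.32, limma adjusted p = 1.00 and 0.64 ± 0.28, limma adjusted p = 0.073). Bmp4, the ligand secreted by ExE, was 4.89, 1.69 and 0.349 TPM in the E5.25 libraries, against 12.3, 4.08 and 13.7 TPM in the E5.0 libraries; the groups overlapped in 1 library and the log2 difference was -1.85 ± 0.62, limma adjusted p = 0.018. Smad1, which carries the BMP signal, was 6.71, 2.96 and 8.77 TPM in the E5.25 libraries, against 0.424, 0 and 0.595 TPM in the E5.0 libraries (log2 difference 2.35 ± 0.39, limma adjusted p = 3.2e-06), and the inhibitory Smad7 was 14.1, 8.32 and 6.31 TPM in the E5.25 libraries, against 2.72, 1.03 and 2.45 TPM in the E5.0 libraries (log2 difference 1.77 ± 0.37, limma adjusted p = 1.5e-04). Of 13 genes 2 rose and 2 fell, and 2 and 3 with median-ratio scaling. In the ExE libraries of E5.5, Id2 was 1569 and 1502 TPM and Bmp4 318 and 247 TPM. Bmp4 lost its call with a pseudocount of 0.1 TPM (log2 difference -2.50), without E5.0 replicate 1 (-1.64), without E5.0 replicate 3 (-1.57) or without E5.25 replicate 3 (-1.33). For the BMP list 0 rose and 1 fell in the fit of only the libraries compared, 2 rose and 1 fell without E5.0 replicate 3, and 4 rose and 1 fell without E5.25 replicate 3.

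Most markers of the trophoblast tissue next to the epiblast fell. Of the 10 ExE markers 8 fell and 0 rose, with a median of -2.08; with median-ratio scaling 9 fell. Elf5 (chromosome 2, 103411688 to 103450989), the ETS factor that maintains trophoblast stem cells, was 0.391, 0.395 and 0.243 TPM in the E5.25 libraries, against 37.1, 30.3 and 35.2 TPM in the E5.0 libraries (log2 difference -4.71 ± 0.24, limma adjusted p = 1.3e-21). Rhox6, an X-linked homeobox gene of placenta, was 0.563, 0.471 and 0.671 TPM in the E5.25 libraries, against 17.3, 21.4 and 9.14 TPM in the E5.0 libraries (log2 difference -3.36 ± 0.33, limma adjusted p = 8.2e-12). Tfap2c, an AP-2 factor of trophoblast, was 0.122, 0.261 and 0.105 TPM in the E5.25 libraries, against 7.35, 6.26 and 7.89 TPM in the E5.0 libraries (log2 difference -2.81 ± 0.54, limma adjusted p = 4.2e-05). These 3 genes were present in every E5.0 library and under 1 TPM in every E5.25 library. For the ExE markers 0 rose and 4 fell in the fit of only the libraries compared.

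Ascl2, a bHLH factor of the placenta, was 0, 6.41 and 29.9 TPM in the E5.25 libraries, against 74.0, 50.5 and 68.5 TPM in the E5.0 libraries (log2 difference -3.40 ± 0.60, limma adjusted p = 9.5e-06), with E5.25 replicate 3 the highest of its group. Cdx2, the caudal factor that defines trophectoderm, was 0, 0 and 0 TPM in the E5.25 libraries, against 0.933, 0.497 and 0 TPM in the E5.0 libraries and so at or near 0 in both groups. Among the 12 trophectoderm and giant cell markers 4 fell, as with median-ratio scaling: the keratins Krt8 and Krt18, the placental gene Plac1 and the bHLH factor Hand1. Plac1 was 0.663, 5.06 and 0.419 TPM in the E5.25 libraries, against 55.5, 55.5 and 45.8 TPM in the E5.0 libraries (log2 difference -4.45 ± 0.52, limma adjusted p = 7.4e-10), and Hand1 was 0.767, 0.273 and 0.224 TPM in the E5.25 libraries, against 29.9, 11.4 and 16.1 TPM in the E5.0 libraries (log2 difference -3.74 ± 0.33, limma adjusted p = 3.0e-13). Krt18 has many pseudogenes, so its level is uncertain. Krt8 lost its call with Rn45s kept (log2 difference -0.93) or without E5.25 replicate 3 (-0.97). Krt18 lost its call without E5.25 replicate 3 (log2 difference -0.99). For the trophectoderm and giant cell markers 1 rose and 4 fell without E5.0 replicate 2, and 1 rose and 2 fell without E5.25 replicate 3.

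Overlap with genes of ExE was read from libraries outside the 6. At E5.5 in vivo 1756 of the genes tested (11.2%) were called higher in ExE than in Epi. Of the 707 genes that fell at E5.25, 253 (35.8%) were among them, which is 14.4% of the ExE genes. Of the 2836 genes that rose, 273 (9.63%) were among them, and 412 (14.5%) were among the 1406 genes (8.96%) lower in ExE than in Epi. Of the 707 genes that fell, 48 (6.79%) were among these 1406. At E4.75, 405 genes (2.58%) were called higher in ExE than in Epi. Of the 707 genes that fell, 73 (10.3%) were among them, 18.0% of those ExE genes. At that age 942 genes (6% of all tested) were called lower in ExE than in Epi. Of the 707, 71 (10.0%) were among these, 7.54% of those genes. Both shares of the falls were above those of all genes tested, and the share of genes higher in ExE was further above. Of the 2836 genes that rose, 26 (0.917%) were among the 405 and 293 (10.3%) among the 942.

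Imprinted growth genes were among the falls. Phlda2 (chromosome 7, 143501545 to 143503150), a maternally expressed gene that restrains placental growth, was 97.2, 71.4 and 90.8 TPM in the E5.25 libraries, against 1446, 1451 and 1420.0 TPM in the E5.0 libraries (log2 difference -4.05 ± 0.32, limma adjusted p = 4.5e-15). The insulin-like growth factor Igf2 was 0.556, 0.132 and 0.422 TPM in the E5.25 libraries, against 12.6, 8.91 and 28.1 TPM in the E5.0 libraries (log2 difference -3.54 ± 0.34, limma adjusted p = 4.4e-12), and H19, the non-coding RNA next to it, was 12.4, 6.63 and 1.90 TPM in the E5.25 libraries, against 60.3, 28.6 and 66.3 TPM in the E5.0 libraries (log2 difference -2.89 ± 0.33, limma adjusted p = 3.1e-10). All E5.25 libraries were below all E5.0 libraries for these 3 genes, which in the ExE libraries of E5.5 were at 2002 and 1891, 45.5 and 44.5 and 558 and 542 TPM. Mest and Igf2r, a hydrolase and the receptor that clears Igf2, had log2 differences of 1.59 ± 0.51, limma adjusted p = 0.013, and of 1.42 ± 0.32, limma adjusted p = 3.8e-04. Of 15 imprinted genes tested 2 rose and 3 fell, and 1 and 4 with median-ratio scaling. Mest lost its call with a pseudocount of 0.1 TPM (log2 difference 1.61), with quantile normalization (1.09), with median-ratio scaling (1.09), without E5.0 replicate 1 (1.44) or without E5.25 replicate 1 (1.41). Igf2r lost its call with quantile normalization (log2 difference 0.99). For the imprinted list 1 rose and 3 fell without E5.0 replicate 1.

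The largest falls outside predicted genes were mostly of genes present in ExE. Presence there is common, as 9790 and 9866 of the 25005 genes reached 1 TPM in the ExE libraries of E5.5. The part of ExE RNA in these falls was not tested. Gjb5 (chromosome 4, 127354809 to 127358181), a connexin of trophoblast gap junctions, was 0.314, 4.20 and 3.54 TPM in the E5.25 libraries, against 185, 209.9 and 184 TPM in the E5.0 libraries (log2 difference -5.95 ± 0.45, limma adjusted p = 1.2e-15). The homeobox gene Rhox5 (chromosome X, 37804842 to 37808876) was 36.2, 30.2 and 36.6 TPM in the E5.25 libraries, against 1262, 1369 and 1339 TPM in the E5.0 libraries (log2 difference -5.23 ± 0.19, limma adjusted p = 3.2e-28), and the tumour rejection antigen gene Trap1a was 9.72, 21.4 and 2.73 TPM in the E5.25 libraries, against 371, 397 and 398 TPM in the E5.0 libraries (log2 difference -5.34 ± 0.26, limma adjusted p = 1.5e-22). These 3 genes, like Elf5, were present in ExE of E5.5, Rhox5 at 4009.9 and 4007 TPM and Gjb5 at 184 and 233 TPM. Rhox4g, Ly6a and Fgfbp1, a homeobox gene with near-identical copies, a surface antigen and an FGF carrier, fell by 5.15, 4.88 and 4.51 on the log2 scale and were also present in ExE. Zbp1, a sensor of nucleic acids, and the histone gene H3c14 were the exceptions. Zbp1 was 0, 8.92 and 0 TPM in the E5.25 libraries, against 70.4, 90.4 and 76.1 TPM in the E5.0 libraries and was listed at 0 in both ExE libraries of E5.5, and H3c14 was 1.99, 6.23 and 7.38 TPM in the E5.25 libraries, against 186, 244 and 183 TPM in the E5.0 libraries, with 0.667 and 4.52 TPM in ExE.

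Promoter windows were read for 4 genes whose differences were large and which contrast in CG content, chosen after their values were seen. Each is the sense strand from RefSeq on GRCm38.p6, 250 bases before to 50 after the first start listed for the gene, with every CG in capitals. Elf5 (chr2:103411848-103412147, plus strand) and Gjb5 (chr4:127358115-127358414, minus strand) fell, and Fgf5 (chr5:98253934-98254233, plus strand) and Spry2 (chr14:105896770-105897069, minus strand) rose.
Elf5: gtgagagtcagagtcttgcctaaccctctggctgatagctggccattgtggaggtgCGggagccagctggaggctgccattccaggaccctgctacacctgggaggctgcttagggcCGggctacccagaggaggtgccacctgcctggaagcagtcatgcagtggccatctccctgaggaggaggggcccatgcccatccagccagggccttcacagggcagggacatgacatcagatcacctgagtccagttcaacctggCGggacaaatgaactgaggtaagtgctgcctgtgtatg
Gjb5: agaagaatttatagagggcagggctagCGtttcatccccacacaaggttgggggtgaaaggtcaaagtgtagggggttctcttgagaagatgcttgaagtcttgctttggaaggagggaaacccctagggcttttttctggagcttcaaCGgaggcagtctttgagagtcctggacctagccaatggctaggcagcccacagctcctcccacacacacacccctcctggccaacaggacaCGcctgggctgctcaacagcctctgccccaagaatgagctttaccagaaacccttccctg
Fgf5: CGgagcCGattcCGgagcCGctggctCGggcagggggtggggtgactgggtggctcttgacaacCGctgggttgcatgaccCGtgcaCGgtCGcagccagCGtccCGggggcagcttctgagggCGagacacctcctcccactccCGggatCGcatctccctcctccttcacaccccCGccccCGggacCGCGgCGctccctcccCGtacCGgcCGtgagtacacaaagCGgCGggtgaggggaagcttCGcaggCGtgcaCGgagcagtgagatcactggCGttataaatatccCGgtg
Spry2: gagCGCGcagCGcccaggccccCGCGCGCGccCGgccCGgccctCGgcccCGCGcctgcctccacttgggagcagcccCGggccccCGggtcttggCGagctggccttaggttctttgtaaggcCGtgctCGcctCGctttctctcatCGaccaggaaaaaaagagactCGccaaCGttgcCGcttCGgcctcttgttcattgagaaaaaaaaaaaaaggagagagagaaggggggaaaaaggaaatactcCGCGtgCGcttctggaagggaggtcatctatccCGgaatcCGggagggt
The Elf5 and Gjb5 windows hold 3 CG dinucleotides each, and the Fgf5 and Spry2 windows 29 and 28. Windows were available for 2049 genes that rose, 460 that fell and 7897 in all with at least 1 TPM in 3 of the 6 libraries. The median was 23 CG in the genes that rose, 17 in those that fell and 21 in all. Under 5 CG were found in 3.81% of the genes that rose, 10.4% of those that fell and 4.80% of all. Among 171 genes that fell and were higher in ExE of E5.5, the share was 12.3%. CG content is given as a description of these windows.

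**Figure D4:**
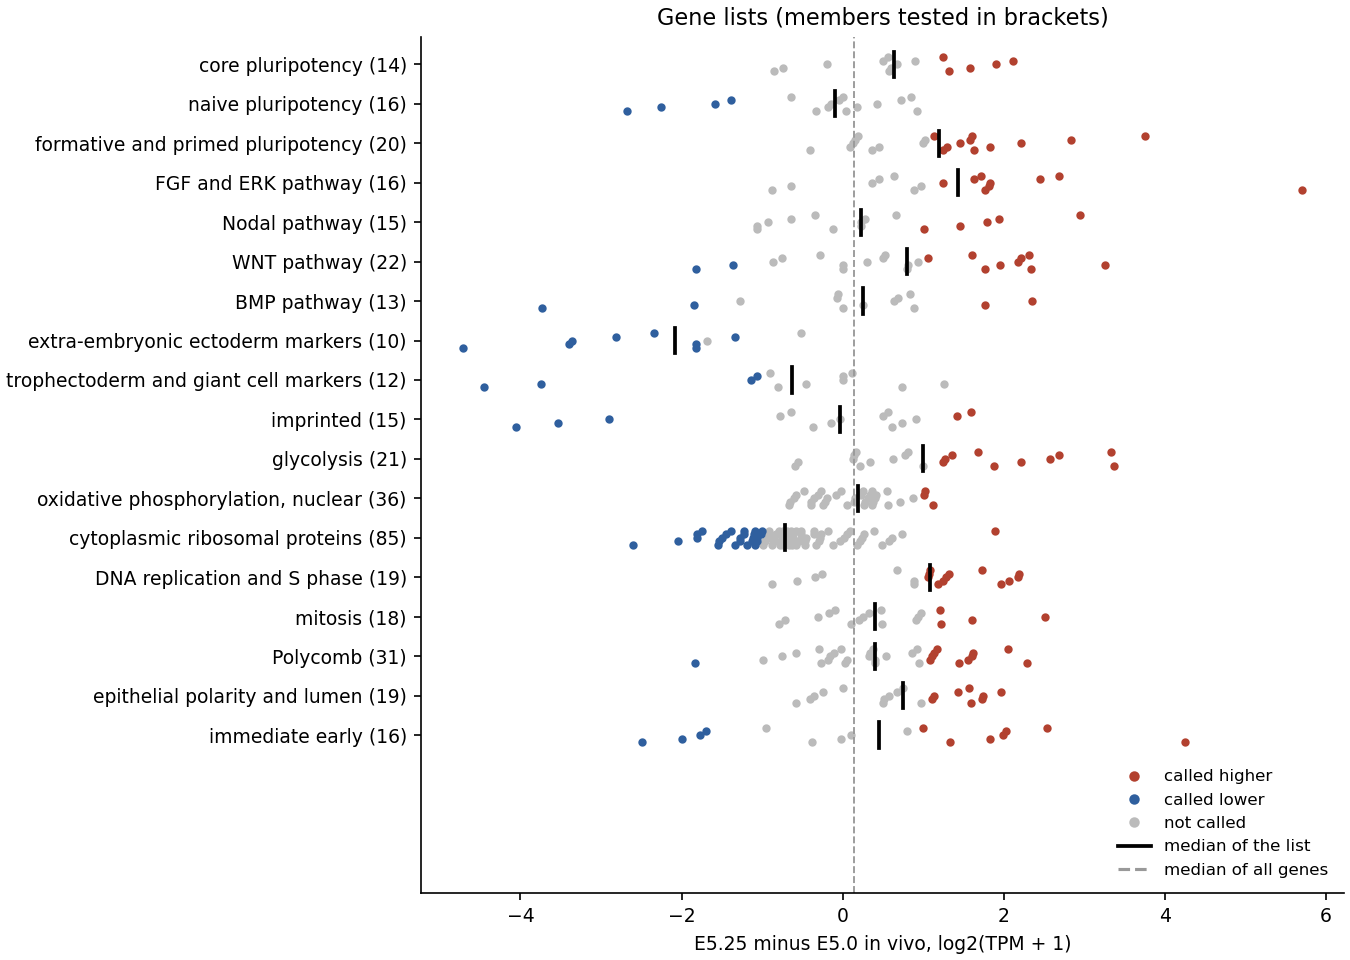
Log2 difference between E5.25 and E5.0 in vivo of each tested member of 18 gene lists; red members were called higher at E5.25, blue members lower, grey members not called, black bars are list medians and the dashed line is the median of all genes (0.15). The ExE markers lie to the left with a median of -2.08, ribosomal proteins at -0.72, and the FGF and formative lists to the right at 1.44 and 1.19.

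Glycolytic genes that changed all rose. Of 21 genes 10 rose and 0 fell, with a median of 1.00; with median-ratio scaling 7 rose and 1 fell. Pfkl, the liver isoform of phosphofructokinase, was 643, 482 and 384 TPM in the E5.25 libraries, against 51.8, 37.6 and 52.3 TPM in the E5.0 libraries (log2 difference 3.37 ± 0.18, limma adjusted p = 3.4e-21). Hexokinase Hk2 was 73.1, 43.0 and 38.7 TPM in the E5.25 libraries, against 4.74, 5.46 and 12.0 TPM in the E5.0 libraries (log2 difference 2.69 ± 0.30, limma adjusted p = 2.0e-10), and the lactate exporter Slc16a3 was 281, 136 and 132 TPM in the E5.25 libraries, against 16.4, 12.6 and 20.2 TPM in the E5.0 libraries (log2 difference 3.33 ± 0.50, limma adjusted p = 4.3e-07). Gapdh, whose reads can be shared with many pseudogenes, was 2763, 2124 and 2122 TPM in the E5.25 libraries, against 391, 393 and 378 TPM in the E5.0 libraries (log2 difference 2.58 ± 0.13, limma adjusted p = 7.9e-23). The groups were apart for these 4 genes by a wide margin. Lactate dehydrogenase Ldha averaged 5888 ± 1082 TPM in the E5.25 libraries and 3394 ± 66.3 TPM in the E5.0 libraries and stayed under the minimum difference (log2 difference 0.78 ± 0.12, limma adjusted p = 6.0e-07), and the aldolase Aldoa was not called (log2 difference 0.15 ± 0.09, limma adjusted p = 0.21). Ldha was called with quantile normalization (log2 difference 1.21).

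Few nuclear genes of oxidative phosphorylation passed the test: of 36 genes 3 rose and 0 fell, and with median-ratio scaling 0 rose and 4 fell. The list median was 0.19 as reported and -0.31 with median-ratio scaling. Of 21 cholesterol synthesis genes 5 rose and 0 fell (18.1% and 4.5% of all genes tested), against 3 and 3 with median-ratio scaling. Insig1, which retains the sterol sensor in the endoplasmic reticulum, was 69.4, 50.1 and 51.4 TPM in the E5.25 libraries, against 13.6, 5.05 and 19.1 TPM in the E5.0 libraries (log2 difference 2.25 ± 0.37, limma adjusted p = 2.3e-06), and the synthesis enzyme Sqle was 127, 85.3 and 96.5 TPM in the E5.25 libraries, against 26.0, 28.1 and 32.3 TPM in the E5.0 libraries (log2 difference 1.79 ± 0.34, limma adjusted p = 3.2e-05). The antioxidant list split, with 5 of 18 genes higher and 3 lower (3 and 6 with median-ratio scaling). Sod1, the cytosolic superoxide dismutase, was 5273, 6090.1 and 5799 TPM in the E5.25 libraries, against 604, 747 and 613 TPM in the E5.0 libraries (log2 difference 3.13 ± 0.09, limma adjusted p = 1.2e-33), while the haem oxygenase Hmox1 was 47.9, 55.9 and 41.2 TPM in the E5.25 libraries, against 256, 230.3 and 217 TPM in the E5.0 libraries (log2 difference -2.26 ± 0.21, limma adjusted p = 2.1e-12). For the antioxidant list 2 rose and 2 fell in the fit of only the libraries compared, 3 rose and 2 fell without E5.25 replicate 1, and 5 rose and 5 fell without E5.25 replicate 3. For the cholesterol list 3 rose and 0 fell in the fit of only the libraries compared, and 5 rose and 1 fell without E5.0 replicate 2 or without E5.25 replicate 1. For the oxidative phosphorylation list 0 rose and 0 fell without E5.0 replicate 2, and 1 rose and 0 fell without E5.25 replicate 1.

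Ribosomal protein genes fell far more often than they rose. Of 85 genes 25 fell and 1 rose, with a median of -0.72; 60 fell with median-ratio scaling and 18 with quantile normalization. Rpl10a was 601, 602 and 646 TPM in the E5.25 libraries, against 2479, 2490.3 and 2661 TPM in the E5.0 libraries (log2 difference -2.04 ± 0.10, limma adjusted p = 4.8e-23), and Rps12 was 441, 793 and 684 TPM in the E5.25 libraries, against 2283, 2151 and 2102 TPM in the E5.0 libraries (log2 difference -1.81 ± 0.14, limma adjusted p = 2.2e-15). Rpl29, the exception, was 782, 912 and 1090.5 TPM in the E5.25 libraries, against 225, 294 and 229 TPM in the E5.0 libraries (log2 difference 1.89 ± 0.11, limma adjusted p = 2.8e-20). All 3 were apart between the ages, but reads of ribosomal protein genes can be shared with their many processed copies, so single values are uncertain. Among 24 translation factors 3 rose and 2 fell (3 and 7 with median-ratio scaling). Eif3b, a scaffold of initiation factor 3, was 669.6, 469 and 369 TPM in the E5.25 libraries, against 85.2, 59.1 and 71.6 TPM in the E5.0 libraries (log2 difference 2.76 ± 0.20, limma adjusted p = 2.2e-16), and the elongation factor Eef1b2 was 491, 633 and 573 TPM in the E5.25 libraries, against 1538, 1501 and 1426 TPM in the E5.0 libraries (log2 difference -1.40 ± 0.09, limma adjusted p = 2.5e-17). The fall of the ribosomal protein genes stood beside the fall of Rn45s given above, and both shares were highest in the in vivo E5.0 libraries among the Epi groups. In the unsuffixed step 0 of the 85 genes rose and 1 fell, with a median of -0.25. The difference of the steps was called higher for 1 and lower for 8. For the ribosomal proteins 2 rose and 17 fell without E5.25 replicate 1. For the translation factors 4 rose and 1 fell without E5.0 replicate 3, and 3 rose and 1 fell without E5.25 replicate 2.

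Of 19 genes of DNA replication 12 rose and 0 fell, with a median of 1.09 (5 and 2 with median-ratio scaling). The helicase subunits Mcm5, Mcm3 and Mcm2 led the list. Mcm5 was 333, 261 and 230.4 TPM in the E5.25 libraries, against 48.3, 54.4 and 76.4 TPM in the E5.0 libraries (log2 difference 2.19 ± 0.22, limma adjusted p = 1.5e-11), and Mcm3 and Mcm2 differed by 2.18 and 2.06 (log2). Pcna, the sliding clamp, was not called, with 890.2 ± 87.2 TPM in the E5.25 libraries and 1126 ± 97.1 TPM in the E5.0 libraries (log2 difference -0.34 ± 0.10, limma adjusted p = 0.0095). Of 18 mitosis genes 4 rose and 0 fell (18.1% and 4.5% of all genes tested), but 2 and 2 with median-ratio scaling. Kif20a, a kinesin of the central spindle, was 206, 65.2 and 87.9 TPM in the E5.25 libraries, against 13.8, 22.1 and 18.3 TPM in the E5.0 libraries (log2 difference 2.51 ± 0.37, limma adjusted p = 2.3e-07). For the replication list 7 rose and 0 fell in the fit of only the libraries compared, and 11 rose and 1 fell without E5.25 replicate 3. For the mitosis list 7 rose and 0 fell without E5.0 replicate 3 or without E5.25 replicate 3.

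Replication-dependent histone genes split: of 63 tested 14 rose and 8 fell (18.1% and 4.5% of all genes tested), and 7 and 14 with median-ratio scaling. The 4 largest rises and the 4 largest falls differed in kind, and the other called genes were not counted by kind. H2ac12, H2ac8, Hist1h2an and H2ac1, all H2A genes, had log2 differences of 3.64, 3.58, 3.05 and 2.03. H3c14, H3c15, H3c11 and H3c10, all H3 genes, had -5.17, -3.28, -2.35 and -2.11. Histone genes are near-identical in sequence and their messages lack a poly(A) tail, so values of single genes are uncertain in libraries primed on poly(A). H3c10 lost its call with a pseudocount of 0.1 TPM (log2 difference -2.31). For the histone list 8 rose and 4 fell in the fit of only the libraries compared, and 11 rose and 5 fell without E5.25 replicate 1.

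Of 21 splicing factors 8 rose and 1 fell (5 and 2 with median-ratio scaling). Arglu1, an arginine-rich nuclear co-regulator of splicing, was 357, 277 and 238 TPM in the E5.25 libraries, against 3.30, 4.52 and 5.64 TPM in the E5.0 libraries (log2 difference 5.74 ± 0.35, limma adjusted p = 4.5e-19). Srsf9 was 399, 330.1 and 340.1 TPM in the E5.25 libraries, against 35.5, 18.6 and 72.7 TPM in the E5.0 libraries (log2 difference 3.25 ± 0.27, limma adjusted p = 1.8e-14), and Srsf2, an SR protein of exon definition, was 899, 575 and 631 TPM in the E5.25 libraries, against 135, 106 and 209 TPM in the E5.0 libraries (log2 difference 2.25 ± 0.22, limma adjusted p = 6.9e-12). The groups lay apart for all 3, with E5.0 replicate 3 the highest of its group in each. Srsf3 fell, with 533 ± 38.0 TPM in the E5.25 libraries and 1112 ± 45.1 TPM in the E5.0 libraries (log2 difference -1.06 ± 0.16, limma adjusted p = 6.3e-07). Srsf3 lost its call with quantile normalization (log2 difference -0.95) or with Rn45s kept (-0.93).

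Counts of chromatin regulators moved with the scaling. Of 31 Polycomb genes, which include writers and readers of H3K27me3, 10 rose and 1 fell. With median-ratio scaling 6 rose and 4 fell, and the median changed sign (0.40 as reported and -0.07 under that scaling). Cbx7, which binds H3K27me3 in the first Polycomb complex, was 35.8, 40.6 and 31.3 TPM in the E5.25 libraries, against 3.86, 5.26 and 12.8 TPM in the E5.0 libraries (log2 difference 2.29 ± 0.38, limma adjusted p = 3.8e-06). Rbbp4, a histone chaperone shared by several complexes, was 102, 70.3 and 76.4 TPM in the E5.25 libraries, against 28.7, 18.0 and 33.5 TPM in the E5.0 libraries (log2 difference 1.62 ± 0.17, limma adjusted p = 7.0e-11). Both were higher in all E5.25 libraries. Phf19, which recruits the second complex, was 0, 0 and 0 TPM in the E5.25 libraries, against 4.55, 2.29 and 1.46 TPM in the E5.0 libraries, listed at 0 in every E5.25 library. Its call was lost without E5.0 replicate 1 (limma adjusted p = 0.051). For the Polycomb list 3 rose and 1 fell in the fit of only the libraries compared, 7 rose and 2 fell without E5.0 replicate 2 or without E5.25 replicate 1, and 9 rose and 2 fell without E5.0 replicate 3 or without E5.25 replicate 3.

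Of 15 genes of the H3K4 methyltransferase complexes 2 rose and 0 fell, and 2 and 3 with median-ratio scaling. The risen ones were Paxip1 and Men1, subunits that target the enzymes, with log2 differences of 2.26 and 1.72. Men1 lost its call with quantile normalization (log2 difference 0.99). Of 7 demethylases of H3K4 and H3K27 3 rose, and 2 with median-ratio scaling. Kdm6b, which removes H3K27me3, was 21.7, 10.5 and 9.31 TPM in the E5.25 libraries, against 0.226, 1.59 and 0.563 TPM in the E5.0 libraries (log2 difference 3.03 ± 0.33, limma adjusted p = 1.9e-10). In the DNA methylation list Dnmt3l, the cofactor of the de novo enzymes, was 57.5, 40.3 and 49.8 TPM in the E5.25 libraries, against 167, 179 and 167 TPM in the E5.0 libraries (log2 difference -1.79 ± 0.39, limma adjusted p = 2.6e-04), so it fell while Dnmt3b rose. Tdg, the glycosylase of active demethylation, was 63.8, 62.7 and 35.2 TPM in the E5.25 libraries, against 7.71, 4.12 and 7.30 TPM in the E5.0 libraries (log2 difference 2.89 ± 0.35, limma adjusted p = 1.7e-09). Of the 10 genes of that list 3 rose and 1 fell (2 and 1 with median-ratio scaling). Dnmt3l lost its call with a pseudocount of 0.1 TPM (log2 difference -1.81). For the H3K4 methyltransferase list 0 rose and 0 fell in the fit of only the libraries compared, and 2 rose and 1 fell without E5.0 replicate 2.

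Most developmental regulators were low or absent in both groups. Of 28 such genes 24 were tested, 1 rose and 3 fell, the same counts as with median-ratio scaling, and 15 were under 1 TPM in all 6 libraries. Eomes, a T-box factor of trophoblast and early mesoderm, was 2.22, 1.47 and 5.21 TPM in the E5.25 libraries, against 6.70, 11.6 and 7.19 TPM in the E5.0 libraries (log2 difference -1.34 ± 0.25, limma adjusted p = 2.1e-05). Irx3, a homeobox gene, was 0, 0 and 0 TPM in the E5.25 libraries, against 4.99, 2.23 and 4.68 TPM in the E5.0 libraries, and Hand1 fell as given with the trophoblast markers. Eomes, Irx3 and Hand1 were each present in ExE of E5.5, where Eomes was 134 and 119 TPM. For the developmental regulators 0 rose and 2 fell in the fit of only the libraries compared, and 0 rose and 3 fell without E5.0 replicate 1 or without E5.25 replicate 1 or without E5.25 replicate 2.

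Stress and early response genes moved in both directions. Of 16 immediate early genes 7 rose and 4 fell (5 and 5 with median-ratio scaling). Jund and Junb rose, and Jund was 71.9, 72.9 and 22.7 TPM in the E5.25 libraries, against 2.26, 0.941 and 1.91 TPM in the E5.0 libraries (log2 difference 4.25 ± 0.37, limma adjusted p = 7.9e-14), and Junb was 42.7, 29.4 and 12.1 TPM in the E5.25 libraries, against 4.97, 3.56 and 2.28 TPM in the E5.0 libraries (log2 difference 2.53 ± 0.33, limma adjusted p = 1.2e-08). Their Fos partner fell, with 26.8, 9.34 and 3.45 TPM in the E5.25 libraries, against 47.1, 75.0 and 60.6 TPM in the E5.0 libraries (log2 difference -2.49 ± 0.35, limma adjusted p = 8.0e-08). Egr1, a zinc finger factor induced within minutes by ERK, was 22.0, 17.8 and 10.4 TPM in the E5.25 libraries, against 48.1, 58.4 and 55.9 TPM in the E5.0 libraries (log2 difference -1.69 ± 0.34, limma adjusted p = 9.0e-05). Jund and Egr1 were apart between the ages in opposite directions. Of 14 p53 targets 3 rose and 2 fell, beside 18.1% and 4.5% of all genes tested (2 and 2 with median-ratio scaling). Pmaip1, the BH3 protein Noxa that primes cells for apoptosis, was 96.1, 59.4 and 71.5 TPM in the E5.25 libraries, against 2.32, 1.70 and 6.69 TPM in the E5.0 libraries (log2 difference 4.20 ± 0.55, limma adjusted p = 1.4e-08), and the membrane protein gene Perp was 3.76, 1.02 and 0.927 TPM in the E5.25 libraries, against 27.2, 23.3 and 42.3 TPM in the E5.0 libraries (log2 difference -3.55 ± 0.46, limma adjusted p = 1.8e-08). In the unfolded protein list 5 of 15 rose and 2 fell, and 1 and 4 with median-ratio scaling. The chaperone Hspa5 was 857, 634 and 589 TPM in the E5.25 libraries, against 265, 187 and 234 TPM in the E5.0 libraries (log2 difference 1.59 ± 0.15, limma adjusted p = 1.9e-12), while the stress factor Ddit3 was 2.15, 10.9 and 18.5 TPM in the E5.25 libraries, against 57.5, 41.4 and 40.0 TPM in the E5.0 libraries (log2 difference -2.37 ± 0.56, limma adjusted p = 7.5e-04). For the unfolded protein list 3 rose and 0 fell in the fit of only the libraries compared. For the immediate early list 2 rose and 1 fell in the fit of only the libraries compared. For the p53 list 2 rose and 1 fell in the fit of only the libraries compared or without E5.0 replicate 2, 5 rose and 1 fell without E5.0 replicate 3, and 3 rose and 1 fell without E5.25 replicate 2 or without E5.25 replicate 3.

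Genes of cell shape changed in both directions. Actb (chromosome 5, 142903115 to 142906754), cytoplasmic actin, was 4949, 3839 and 3445 TPM in the E5.25 libraries, against 573, 553 and 622 TPM in the E5.0 libraries (log2 difference 2.79 ± 0.15, limma adjusted p = 1.1e-20). Among 30 actin and actin-binding genes 5 rose and 4 fell (18.1% and 4.5% of all genes tested), against 3 and 6 with median-ratio scaling. The crosslinker Actn4 was 104, 44.2 and 46.7 TPM in the E5.25 libraries, against 8.17, 7.50 and 18.8 TPM in the E5.0 libraries (log2 difference 2.40 ± 0.26, limma adjusted p = 1.7e-10), whereas Tmsb4x, which sequesters actin monomers, was 175, 220.5 and 243 TPM in the E5.25 libraries, against 911, 920.0 and 868 TPM in the E5.0 libraries (log2 difference -2.09 ± 0.45, limma adjusted p = 1.9e-04). The groups were apart for all 3 genes. Of 19 polarity and lumen genes 8 rose and 0 fell, with a median of 0.75 (6 and 1 with median-ratio scaling). The apical kinase Prkci was 19.7, 17.3 and 21.1 TPM in the E5.25 libraries, against 3.40, 3.21 and 6.65 TPM in the E5.0 libraries (log2 difference 1.96 ± 0.38, limma adjusted p = 5.1e-05), and the tight junction protein Cldn6 was 808, 715 and 702 TPM in the E5.25 libraries, against 235, 249 and 248 TPM in the E5.0 libraries (log2 difference 1.60 ± 0.14, limma adjusted p = 2.8e-13). Of 13 matrix genes 3 rose and 0 fell (18.1% and 4.5% of all genes tested), and 3 and 1 with median-ratio scaling. The risen ones were Serpinh1, the collagen chaperone, and the basement membrane chains Col4a1 and Lamc1, with log2 differences of 2.25, 1.53 and 1.40. Lamc1 lost its call with quantile normalization (log2 difference 0.96). For the actin list 2 rose and 4 fell in the fit of only the libraries compared. For the matrix list 0 rose and 0 fell in the fit of only the libraries compared, and 3 rose and 1 fell without E5.0 replicate 1. For the polarity list 3 rose and 0 fell in the fit of only the libraries compared.

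The 10 largest rises were led by genes that were listed at 0 at E5.0. Inha (chromosome 1, 75507077 to 75510366), the alpha subunit of inhibin, was 125, 72.9 and 101 TPM in the E5.25 libraries, against 0, 0 and 0 TPM in the E5.0 libraries. Cxcl1, a chemokine, was 42.1, 79.2 and 80.8 TPM in the E5.25 libraries, against 0, 0 and 0 TPM in the E5.0 libraries, and Anxa1, a phospholipid-binding annexin, was 46.8, 31.1 and 26.5 TPM in the E5.25 libraries, against 0, 0 and 0 TPM in the E5.0 libraries. Inha was listed at 0 in both ExE libraries and both Epi libraries of E5.5 as well, and no fold is given for these 3 genes. Ephx2, an epoxide hydrolase, was 86.4, 107 and 74.1 TPM in the E5.25 libraries, against 0, 5.04 and 0 TPM in the E5.0 libraries (log2 difference 5.61 ± 0.55, limma adjusted p = 4.7e-12). Serpine2, a secreted protease inhibitor, was 118, 132 and 131 TPM in the E5.25 libraries, against 2.31, 2.16 and 2.42 TPM in the E5.0 libraries (log2 difference 5.28 ± 0.62, limma adjusted p = 9.9e-10). The ubiquitin-conjugating enzyme Ube2s, which acts with the anaphase-promoting complex, was 496, 499 and 468 TPM in the E5.25 libraries, against 24.9, 10.9 and 15.5 TPM in the E5.0 libraries (log2 difference 4.83 ± 0.42, limma adjusted p = 1.4e-13). A lack of overlap between the libraries of the 2 groups was a condition for being among these 10. Cebpb, a bZIP factor, and Dtnbp1, a protein of lysosome-related organelles, completed the 10 with Arglu1 and Spry2, at log2 differences of 4.78 and 4.84.

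The step from E5.0 to E5.25 was then set beside the same step in the unsuffixed Epi libraries, which share no library with it. There 561 genes rose (3.57%) and 289 fell (1.84%). Both steps called 338 genes higher, 11.9% of the in vivo rises and 60.2% of the unsuffixed ones, and 89 genes lower, 12.6% and 30.8%. In a test of the difference between the steps, the in vivo step was higher for 1554 genes (9.90%) and lower for 491 (3.13%). Higher steps were 75.99% of these calls, 54.24% with median-ratio scaling and 52.38% with quantile normalization. A gene called here differed between the steps by an adjusted p under 0.05 and at least 1 on the log2 scale.

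Several genes described above differed between the steps. Tdgf1 was 315, 309 and 335 TPM in unsuffixed E5.25 and 316, 274 and 264 TPM in unsuffixed E5.0 libraries, and the in vivo step was larger by 2.77 ± 0.30, limma adjusted p = 8.3e-10 (log2). Pou5f1 was 116, 152 and 113 TPM in unsuffixed E5.25 and 189.9, 149.6 and 137 TPM in unsuffixed E5.0 libraries (difference of the steps 1.91 ± 0.60, limma adjusted p = 0.022). Neither gene had a called difference in the unsuffixed step. The differences of the steps for Dnmt3b, Dusp6, Spry2 and Nodal were 1.63, 2.44, 3.79 and 2.55, and for Zfp42, Id2, Elf5 and Rhox5 they were -1.39, -3.52, -3.62 and -3.86, all called. For Pou5f1 the difference of the steps was not called with a pseudocount of 0.1 TPM (at 1.92), with quantile normalization (1.56), with median-ratio scaling (1.54), without in vivo E5.0 replicate 2 (1.74), without unsuffixed E5.0 replicate 1 (1.77), without in vivo E5.25 replicate 1 (1.79) or without unsuffixed E5.25 replicate 3 (1.83). For Zfp42 the difference of the steps was not called without in vivo E5.25 replicate 1 (at -0.94). For Nodal the difference of the steps was not called with a pseudocount of 0.1 TPM (at 2.75). For Otx2, Fgf5, Pou3f1 and Fgf4 the difference of the steps was not called, at 0.62 ± 0.59, limma adjusted p = 0.58, 0.89 ± 0.69, limma adjusted p = 0.46, 0.64 ± 0.48, limma adjusted p = 0.44 and 0.17 ± 0.45, limma adjusted p = 0.90. Elf5 also fell in the unsuffixed step, with 41.4, 47.2 and 46.0 TPM at E5.25 and 117, 84.8 and 89.9 TPM at E5.0, but stayed above every in vivo library.

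Glycolytic genes differed between the steps. In the test of the difference 11 of 21 genes were higher in the in vivo step and 0 lower, and the unsuffixed step had 0 rises and 4 falls. Slc16a3 was 29.5, 49.0 and 23.1 TPM in unsuffixed E5.25 and 227, 145 and 166 TPM in unsuffixed E5.0 libraries, so it fell there and rose in vivo (difference of the steps 5.75 ± 0.71, limma adjusted p = 2.1e-08). Gapdh was 1419, 1797 and 1398 TPM and 2190.4, 3224 and 2953 TPM in the same groups (difference of the steps 3.43 ± 0.18, limma adjusted p = 2.5e-21). In the same test 10 of 21 endoderm markers were also higher in the in vivo step. In vivo itself 1 of the 21 rose and 1 fell, with a median of 0.0, and 13 were at 0 TPM in every E5.0 library. In the unsuffixed step 10 fell, and the sum of the 21 was 17.5 to 20.1 TPM at E5.25 and 198 to 209 TPM at E5.0.

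Among the largest differences of the steps by the naming rule, Inha, Cxcl1 and Anxa1 were at or under 2 TPM in all unsuffixed libraries. Ephx2 had a difference of 5.47. The 5 largest in the other direction were Calml4, a calmodulin-like gene, H3c14, Fgfbp1, Gjb5 and AA467197, at -6.43, -5.52, -5.08, -4.73 and -4.61. Calml4 was 0.952, 0 and 0 TPM in the E5.25 libraries, against 28.0, 16.6 and 36.9 TPM in the E5.0 libraries, and 6.11, 5.22 and 7.70 TPM in unsuffixed E5.25 and 1.53, 1.36 and 0 TPM in unsuffixed E5.0 libraries. It was thus lower at E5.25 in vivo and higher at E5.25 without the suffix.

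**Figure D5:**
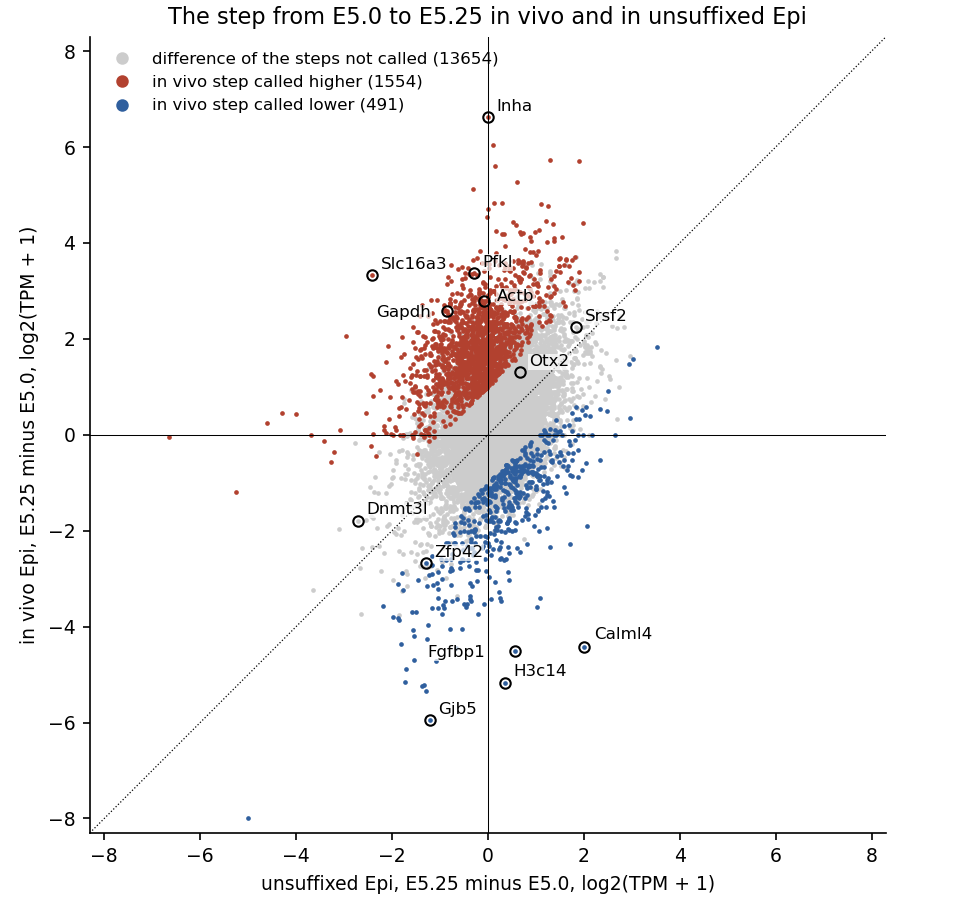
Difference between E5.25 and E5.0 of each of the 15699 genes in vivo (vertical axis, log2) and in the unsuffixed Epi libraries (horizontal axis, log2); red genes had a higher in vivo step (1554), blue genes a lower one (491), and the dotted line marks equal steps. Gapdh, Pfkl, Actb and Slc16a3 lie above the line, while Otx2 and Srsf2 lie near it.

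Levels in the Epi libraries of E5.5 in vivo are given as values, because a step to them would share the E5.25 libraries. Pou5f1 was 21.9 and 28.8 TPM there, Otx2 180.1 and 159 TPM, Fgf5 89.0 and 59.5 TPM and Dnmt3b 886 and 1094 TPM. Tdgf1 was 631 and 502 TPM, Zfp42 25.5 and 24.7 TPM, and Elf5 was listed at 0 in both. Gapdh was 407 and 387 TPM and Actb 54348 and 62666 TPM, beside the 2 ExE libraries, which had 407 and 509 TPM of Gapdh and 67735 and 56648 TPM of Actb. Spry2, near 0 in 2 of the E5.0 libraries, was 1423 and 1664 TPM at E5.5.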

How the data were processed

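RNA-seq of small pools of mouse cells was read as transcript shares per gene (TPM). The authors deposited TPM for 25006 genes of 67 wild-type libraries in 23 groups. The tools, per the submitters' processing notes, were HISAT2 2.2.1, StringTie 2.2.1 and Cufflinks, and the build was mm10. The role of each tool, the annotation, strand handling and duplicate removal are not given in the sources used here. TPM keeps no depth, so the depth of each library and its counting error are unknown, and precision rests on the spread between libraries.

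The Rn45s row was dropped and each library rescaled to 1e+06. Values were tested as log2(TPM + 1), which understates the change of low genes, after a filter of at least 1 TPM in at least 3 of the 67 libraries. limma 3.58.1 in R 4.3.3 fitted all 67 libraries with 1 mean per group, a shared spread and a mean-variance trend. P-values were adjusted by Benjamini-Hochberg over the 15699 genes. A call needed both an adjusted p under 0.05 and a log2 difference of 1 or more in size. The difference between the in vivo and the unsuffixed step was a contrast in the same fit. On simulated data only the in vivo step was tested, not the difference of the steps. Other steps used Python 3.11.15, and figures matplotlib 3.10.9.

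The members and the 44 gene lists (824 symbols) were chosen with earlier results of these data known. Genes named were 13 set by name, in each direction the 10 called genes that differed most, with at least 10 TPM in the higher group and no overlap, up to 4 called per direction and up to 2 abundant uncalled members of each list, and the 5 largest differences of the steps per direction. The largest differences skip predicted genes, genes of the Y chromosome and Xist, and lists of up to 15 genes could be named in full. A gene that the rule names is not reported here. Outside that rule, the genes of the promoter windows, the values given for E5.5, the genes of the test between steps, and Xist and Eif2s3y were chosen after their values were seen.

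Replicate numbers come from the labels. Deviations from the group means of same-numbered libraries correlated at -0.0103, 0.0264 and -0.00431 across genes, so the numbers were not taken to pair libraries. Gene coordinates are of GENCODE vM21 (GRCm38), and promoter windows of RefSeq. Alternatives were the pseudocount, filter, scaling, weights, minimum difference, Rn45s, a replicate block and leaving out each library. Dropping ribosomal protein genes, and a fit and filter of only the libraries compared, were added after seeing the data.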

Additional observations from a re-analysis of the deposited data

Results flagged for a closer look

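The 18 genes listed here are not all of the named genes that differed. Their change between E5.0 and E5.25 in vivo differed from the change in the unsuffixed Epi libraries, in a limma test of that difference. Among other named genes, Inha, Cxcl1, Anxa1 and Nanog were also called in that test. The differences below are the in vivo change minus the unsuffixed change, in log2 units. They were larger in vivo for the glucose metabolism genes Slc16a3 (5.75) and Gapdh (3.43), for the epoxide hydrolase Ephx2 (5.47), and for the FGF feedback genes Spry2 (3.79) and Dusp6 (2.44). They were also larger for Tdgf1 (2.77) and Nodal (2.55) of the Nodal pathway, for Pou5f1 (1.91) and for the methyltransferase Dnmt3b (1.63).

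The difference ran the other way for the naive gene Zfp42 (-1.39), for the BMP target Id2 (-3.52) and for the trophoblast genes Elf5 (-3.62), Rhox5 (-3.86) and Gjb5 (-4.73). It did so too for AA467197 (-4.61), the FGF carrier Fgfbp1 (-5.08), the histone gene H3c14 (-5.52) and Calml4 (-6.43). The labels do not state how the unsuffixed libraries were obtained, so the suffix cannot be told apart from whatever else separated the 2 sets of libraries.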

How the results depend on the processing

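For the step in vivo, quantile normalization gave 1695 rises and 1470 falls, and median-ratio scaling 1513 falls. Array weights gave 458 falls, and no minimum difference 1173. The fit of only the libraries compared gave 855 rises and 261 falls, and 1647 and 385 with its own filter, an alternative added after seeing the data. That fit estimates the spread from the 6 libraries alone. For the difference of the steps, quantile normalization gave 1035 higher and 941 lower, median-ratio scaling 966 lower, no minimum difference 772 lower, the libraries compared alone 941 higher and 288 lower, and with their own filter 305 lower. Leaving out 1 library gave 2385 to 3082 rises and 694 to 746 falls for the step, and 1245 to 1784 higher and 394 to 525 lower for the difference of the steps.

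With the replicate number as a block the step had 2899 rises and 729 falls and the difference of the steps 1628 higher and 515 lower. No named gene's call changed with the block, and the numbers do not pair the libraries. Of 2826 alternative values of 159 named results, 2712 kept their call or lack of one, 105 lost the call and 9 gained one. The number that changed direction with a call in either setting was 0. Results with no call in both settings were not checked for direction.

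In the fit of only the libraries compared, 35 named genes had no call for the step. They were Actn4, Ascl2, Bmp4, Col4a1, Ddit3, Eif2s3y, Eomes, Fgf4, Fos, H19, H2ac1, Insig1, Junb, Lamc1, Lef1, Lefty2, Mcm2, Men1, Nanog, Ndrg1, Nodal, Paxip1, Pou3f1, Rpph1, Serpinh1, Sfrp2, Smad1, Smad7, Snai1, Sox4, Spry1, Tcf15, Trim28, Wnt7b and Zfp57. The same fit left Spry2 and Zfp42 without a call for the difference of the steps. Dropping mitochondrially encoded genes was not run, since no symbol of the table analysed here starts with mt-. TPM keeps no depth, so what depth limits could not be computed.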

Other observations

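Genes outside the comparisons above were also read. Xist, the RNA of the inactive X chromosome, was 5.09, 8.37 and 11.6 TPM in the E5.25 libraries, against 8.53, 13.7 and 11.7 TPM in the E5.0 libraries and was not called (log2 difference -0.44 ± 0.33, limma adjusted p = 0.37). The Y-linked gene Eif2s3y was 52.6, 28.3 and 70.9 TPM in the E5.25 libraries, against 109.9, 101 and 101 TPM in the E5.0 libraries (log2 difference -1.12 ± 0.31, limma adjusted p = 0.0045), so every library held both Xist and a Y-linked transcript. Eif2s3y lost its call with Rn45s kept (log2 difference -0.99) or without E5.25 replicate 2 (-0.76). Xist was called with quantile normalization (log2 difference -1.10). Of 4 Y-linked genes 1 was called higher, 1 lower and 2 not called; with median-ratio scaling 0 was higher and 1 lower. For the Y-linked genes 0 rose and 0 fell in the fit of only the libraries compared or without E5.25 replicate 2, and 0 rose and 1 fell without E5.0 replicate 2 or without E5.0 replicate 3 or without E5.25 replicate 1.

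Among the 6 parietal endoderm markers 3 were called higher and 1 lower at E5.25, and 2 and 1 with median-ratio scaling. Fst, the secreted activin antagonist follistatin, was 40.0, 29.5 and 14.4 TPM in the E5.25 libraries, against 0.199, 0 and 2.14 TPM in the E5.0 libraries (log2 difference 4.11 ± 0.63, limma adjusted p = 6.0e-07), and the zinc finger repressor Snai1 was 1.22, 0 and 1.29 TPM in the E5.25 libraries, against 21.4, 2.99 and 8.08 TPM in the E5.0 libraries (log2 difference -2.44 ± 0.46, limma adjusted p = 2.6e-05). Uterine, blood and leukocyte markers were low in both groups: Cryab, a small heat shock protein of decidua, was 0.269, 0 and 0.865 TPM in the E5.25 libraries, against 8.50, 8.40 and 11.9 TPM in the E5.0 libraries (log2 difference -2.98 ± 0.65, limma adjusted p = 2.5e-04). Rpph1, the RNA of ribonuclease P, was 34.3, 29.1 and 15.1 TPM in the E5.25 libraries, against 6.83, 0.570 and 0.633 TPM in the E5.0 libraries (log2 difference 3.25 ± 0.37, limma adjusted p = 4.2e-10). In the hypoxia list Bnip3, a mitophagy receptor, was 566, 502 and 612 TPM in the E5.25 libraries, against 113, 144 and 120.4 TPM in the E5.0 libraries (log2 difference 2.15 ± 0.18, limma adjusted p = 7.6e-14), while Ndrg1, a hypoxia-induced gene also present in ExE of E5.5 at 160.1 and 141 TPM, was 1.65, 0 and 0.0495 TPM in the E5.25 libraries, against 26.2, 7.13 and 29.9 TPM in the E5.0 libraries (log2 difference -3.75 ± 0.68, limma adjusted p = 1.4e-05). For the parietal endoderm markers 1 rose and 0 fell in the fit of only the libraries compared, and 1 rose and 1 fell without E5.25 replicate 1.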
